A study of Saccharomyces cerevisiae with 16 samples.

Results

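The 9 genes described here encode parts of the yeast cell wall or the enzymes that build it: the PIR proteins PIR1, PIR3, HSP150 and CIS3, the glucan synthase subunits GSC2 and FKS1, and the wall proteins CWP1, CRH1 and SED1. They are 9 of 5449 Saccharomyces cerevisiae genes with a usable probe set on the array, and all 9 were measured on all 16 arrays. They were chosen by their levels on these same arrays as well as by their roles, so their levels are a description, and a pattern shared by them was in view when they were picked. RNA was measured in a wild-type strain (WT) and in 7 mutant strains. In each mutant, 1 CCT subunit has an aspartate replaced by glutamate. CCT is a chaperonin, a ring-shaped complex that folds actin, tubulin and other proteins. Each strain has 2 arrays, called r1 and r2 below from the replicate number in the label.

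The substitutions were D96E in CCT1 (strain MA1), D90E in CCT2 (MA2), D91E in CCT3 (MA3), D117E in CCT5 (MA5), D89E in CCT6 (MA6), D96E in CCT7 (MA7) and D98E in CCT8 (MA8). All 8 strains, WT included, share the alleles gal2, leu2, leu2-3, trp1, ura3-52, pep4-3, prb1-1122 and prc467, and a CBP tag on CCT6. URA3 is the marker beside the tag in 6 of the mutants. WT carries KanMX4 there instead, MA6 carries KANMX4 at its tagged and substituted CCT6, and the other mutants carry KANMX4 at the substituted subunit. Cultures were diluted from overnight growth and collected at 30 °C and an optical density of 0.5. The labels do not say whether the 2 arrays of a strain came from separate cultures, so every p-value below measures only the spread between these arrays.

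The marker gene did not follow the labels on 6 arrays, and every value below is therefore given for the array as labelled. URA3 was low on WT r1, MA2 r2, MA5 r1 and MA8 r1, where its log2 level was 8.07, 7.23, 8.12 and 7.30, and it lay between 11.70 and 12.05 on the other 12 arrays. By the genotypes in the labels it should be low on both WT and both MA6 arrays and high on the rest, so WT r2, MA2 r2, MA5 r1, MA6 r1, MA6 r2 and MA8 r1 go against their labels. Median levels of the 5449 genes were between 10.47 and 10.50 on the 16 arrays. Over all probe sets of the array the median varied more, from 6.40 on MA7 r2 to 7.12 on MA6 r1, with MA1 r1 next highest at 6.99. Genes specific to a-cells were bright (MFA1 at 10.86 to 12.76 and STE2 at 11.90 to 12.93). Of those specific to alpha-cells, MF(ALPHA)1 lay between 4.16 and 4.70, STE3 between 5.13 and 7.06 and SAG1 between 9.28 and 10.30. STE3 was highest on MA6 r1 and MA1 r1, at 7.06 and 6.71. Levels of different probe sets cannot be set against each other, so these values do not settle the mating type.

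The yeast wall is a mesh of glucan with some chitin, covered by mannoproteins. PIR proteins are secreted proteins with internal repeats that attach directly to the glucan, whereas CWP1 and SED1 encode proteins first made with a lipid (GPI) anchor. When the wall is stressed, sensors in the membrane act through the small GTPase Rho1 and the kinase Pkc1 on a kinase chain that ends in Slt2, and Slt2 activates the transcription factor Rlm1. Several PIR genes, CWP1, CRH1 and SED1 are known outputs of this wall integrity pathway, and GSC2 (also called FKS2) is known to be induced by it and by calcineurin signalling.

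PIR3 had the widest spread of the 9 genes. Its log2 level was 8.15 and 10.01 on WT r1 and r2, 12.95 and 9.55 in MA1, 11.60 and 9.68 in MA2, 9.79 and 9.09 in MA3, 8.17 and 10.44 in MA5, 12.95 and 10.09 in MA6, 11.73 and 10.01 in MA7, and 9.83 and 9.35 in MA8. MA1 r1 and MA6 r1 stood highest, MA7 r1 and MA2 r1 followed 1.22 or more below them, and WT r1 and MA5 r1 lay 0.92 below every other array. The 2 arrays of 1 strain therefore stood far apart, by 3.40 in MA1 and 2.86 in MA6. In fold terms, PIR3 was 8.18 and 8.16 times its median on MA1 r1 and MA6 r1, 3.20 and 3.51 times on MA2 r1 and MA7 r1, and 0.294 and 0.297 times on WT r1 and MA5 r1. From the lowest to the highest array it ranged over 27.8-fold, rank 5 in range among the 5449 genes.

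PIR1, the gene next to PIR3, did not show this spread. Its level was 13.06 on both WT arrays, 13.03 and 12.97 in MA1, 12.95 and 13.00 in MA2, 12.87 and 13.19 in MA3, 13.05 and 12.87 in MA5, 13.04 and 13.02 in MA6, 12.93 and 13.02 in MA7, and 12.94 and 13.09 in MA8. The lowest and highest arrays were only 0.32 apart (1.25-fold, 4245th in range of 5449 genes), and WT r1 and MA1 r1, at opposite ends for PIR3, lay within 0.03 of each other.

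HSP150 encodes a PIR protein that is also secreted and is induced by heat. Its level was 13.69 and 14.06 in WT, 14.25 and 14.11 in MA1, 14.10 and 14.08 in MA2, 14.26 and 14.05 in MA3, 13.70 and 14.04 in MA5, 14.14 and 14.07 in MA6, 14.09 and 14.26 in MA7, and 14.00 and 13.96 in MA8. WT r1 and MA5 r1 were again the 2 lowest, but the highest arrays were MA3 r1, MA7 r2 and MA1 r1. The whole range was 0.57 (1.49-fold). HSP150 and SED1 lie close to the highest signal on each array (14.77 to 15.00), where array signals are compressed, so the fold changes of these genes may be understated.

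CIS3, a PIR gene whose product is an abundant wall glycoprotein, was level except on 2 arrays. Its log2 level was 13.65 and 13.63 in WT, 13.74 and 13.62 in MA1, 13.68 and 13.60 in MA2, 14.02 and 13.61 in MA3, 13.64 and 13.59 in MA5, 13.71 and 13.56 in MA6, 13.70 and 13.99 in MA7, and 13.49 and 13.53 in MA8. MA3 r1 and MA7 r2 stood above all others, and WT r1 and MA5 r1 were near the middle. PIR5, the remaining PIR gene and not one of the 9, had a low signal between 7.15 on MA7 r1 and 8.36 on MA2 r2 and MA3 r2, and MA1 r1 and MA6 r1 were at 8.10 and 8.03. PIR genes are similar in sequence, and cross-hybridisation between their probe sets was not tested.

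**Figure D1:**
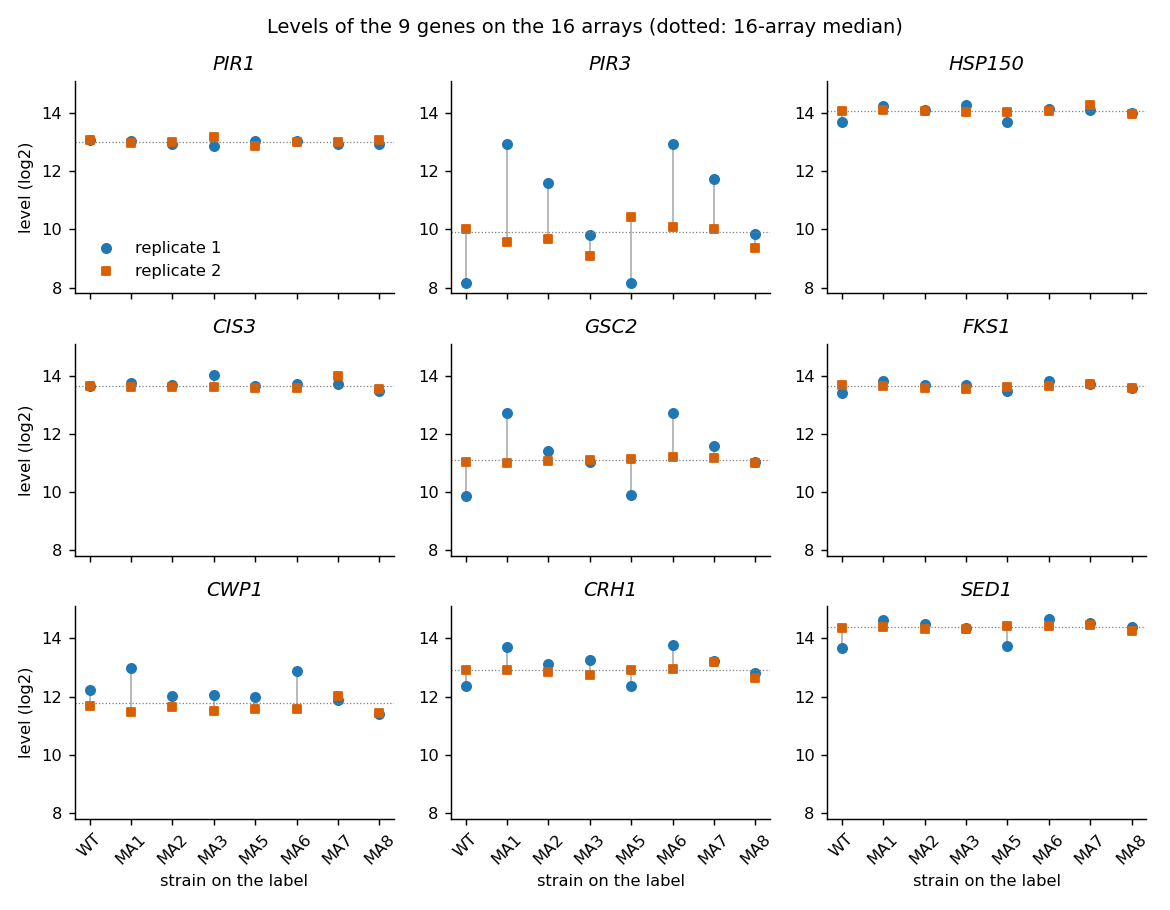
Log2 level of each of the 9 genes on the 16 arrays, with 1 panel per gene on a common vertical scale. The 2 arrays of each strain are joined by a line (circle, replicate 1, and square, replicate 2). PIR3 spans 4.80 and GSC2 2.86 on the log2 scale, with the highest points on MA1 r1 and MA6 r1, whereas PIR1 spans 0.32.

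MA3 r1 and MA7 r2, which stood apart for CIS3 and were the 2 highest for HSP150 by only 0.01, had higher signal along chromosome X, which carries both genes. CIS3 (YJL158C), HSP150 (YJL159W) and PIR5 (YJL160C) are neighbours there. Over the other 314 genes of chromosome X, the median deviation from each gene's own median was 0.72 on MA3 r1 and 0.77 on MA7 r2, and between -0.03 and 0.03 on the other 14 arrays. HSP150 was above its median by 0.19 and 0.18 on these 2 arrays, CIS3 by 0.38 and 0.35, and PIR5 by 0.44 on MA3 r1 and by -0.22 on MA7 r2. Among the 31 chromosome X genes with a mean level within 1 of that of CIS3 on the log2 scale, the medians were 0.40 on MA3 r1 and 0.43 on MA7 r2, smaller than over the whole chromosome. PIR1, FKS1 and CRH1 also have mean levels in this window. Whether their ranges are understated was not tested, and CRH1 ranged over 1.41 there, from 12.37 to 13.78. What part of the HSP150 and CIS3 values on these 2 arrays goes with the chromosome was not tested.

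**Figure D2:**
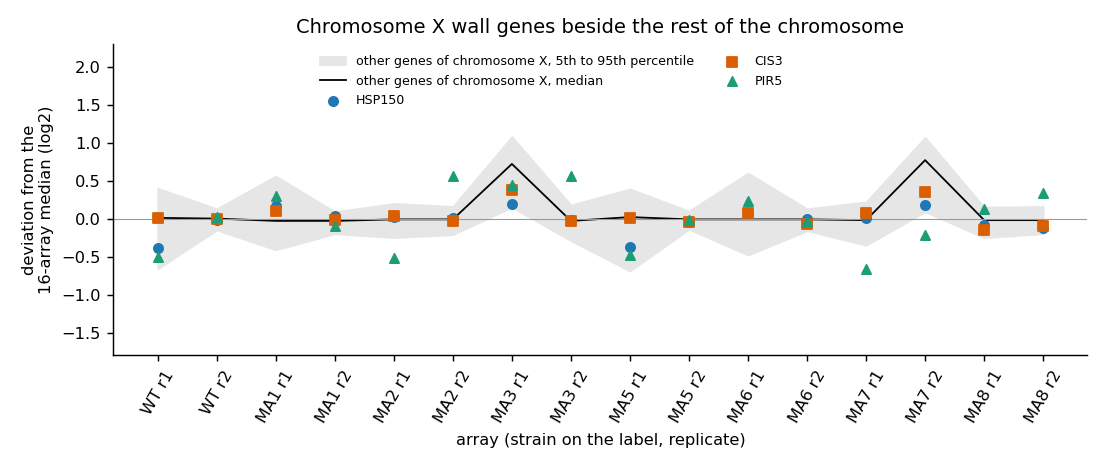
Deviation of log2 level from each gene's median over the 16 arrays, for the other 314 genes of chromosome X (line at the median, shading from the 5th to the 95th percentile) and for HSP150, CIS3 and PIR5 (points). The chromosome median reaches 0.72 and 0.77 on MA3 r1 and MA7 r2 and stays within 0.03 of 0 elsewhere.

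GSC2 encodes the alternative catalytic subunit of the glucan synthase, used mainly under stress. Its level was 9.86 and 11.04 in WT, 12.71 and 11.01 in MA1, 11.42 and 11.08 in MA2, 11.02 and 11.11 in MA3, 9.89 and 11.15 in MA5, 12.72 and 11.21 in MA6, 11.59 and 11.17 in MA7, and 11.04 and 11.00 in MA8. MA1 r1 and MA6 r1 were the 2 highest, at 3.07 and 3.09 times the gene's median, then MA7 r1 and MA2 r1 at 1.41 and 1.25 times, and WT r1 and MA5 r1 were the 2 lowest at 0.425 and 0.434 times. The other 10 arrays lay between 11.00 and 11.21. The range of 7.27-fold was the 61st widest of the 5449 genes.

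FKS1, the main catalytic subunit in growing cells, had the same arrays at its extremes over a range of only 0.40 (1.32-fold). Its level was 13.42 and 13.67 in WT, 13.81 and 13.66 in MA1, 13.69 and 13.59 in MA2, 13.68 and 13.55 in MA3, 13.49 and 13.62 in MA5, 13.82 and 13.65 in MA6, 13.71 and 13.72 in MA7, and 13.59 and 13.58 in MA8. WT r1 and MA5 r1 were lowest and MA6 r1 and MA1 r1 highest. Of the other genes of the synthase, the related subunit gene FKS3 was 8.71 and 8.62 on MA1 r1 and MA6 r1 and 6.51 and 6.67 on WT r1 and MA5 r1, while RHO1, the regulatory GTPase, spanned 0.50 and SMI1, a regulator of glucan synthesis, spanned 0.33.

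CRH1 encodes a transglycosylase that links chitin to glucan. Its level was 12.37 and 12.90 in WT, 13.70 and 12.90 in MA1, 13.13 and 12.83 in MA2, 13.24 and 12.75 in MA3, 12.37 and 12.91 in MA5, 13.78 and 12.95 in MA6, 13.23 and 13.19 in MA7, and 12.81 and 12.62 in MA8. MA6 r1 and MA1 r1 stood above all others, at 1.83 and 1.73 times the median, and WT r1 and MA5 r1 below all others, at 0.692 and 0.690 times. Its order among the remaining arrays differed from that of GSC2: MA3 r1 was the third highest for CRH1 and among the lower arrays for GSC2.

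SED1 encodes an abundant GPI-anchored wall protein that is best known from stationary phase and stress. Its level was 13.67 and 14.35 in WT, 14.62 and 14.40 in MA1, 14.51 and 14.32 in MA2, 14.35 and 14.31 in MA3, 13.75 and 14.41 in MA5, 14.67 and 14.44 in MA6, 14.52 and 14.45 in MA7, and 14.40 and 14.26 in MA8. The low side carried most of its 2.00-fold range: WT r1 and MA5 r1 were at 0.605 and 0.638 times the median, and the other 14 arrays lay between 14.26 and 14.67.

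CWP1, a GPI-anchored mannoprotein found at birth scars, was high on MA1 r1 and MA6 r1 but not low on WT r1 and MA5 r1. Its level was 12.21 and 11.66 in WT, 12.97 and 11.47 in MA1, 12.02 and 11.64 in MA2, 12.04 and 11.51 in MA3, 11.98 and 11.57 in MA5, 12.89 and 11.57 in MA6, 11.89 and 12.02 in MA7, and 11.39 and 11.43 in MA8. MA1 r1 and MA6 r1 were highest, at 2.29 and 2.16 times the median, but WT r1 and MA5 r1 were above the median, at 1.35 and 1.15 times, where PIR3, GSC2, CRH1 and SED1 were lowest. CWP2, its neighbour on chromosome XI and also a wall protein gene, spanned only 0.24, with a correlation of 0.87 with CWP1.

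All 9 genes were above their own median on MA1 r1 and on MA6 r1, by a median of 0.22 and 0.27, where 48.2% and 51.5% of all genes tested were above theirs. On MA2 r1, MA7 r1 and MA7 r2, 8 of the 9 were above, against 52.5%, 51.2% and 40.3% of all genes. On MA8 r1, 0 of the 9 were above (48.6% of all genes), and on MA2 r2 and MA8 r2 it was 1 of 9 (50.6% and 50.1%). On WT r1 and MA5 r1, 3 of the 9 were above and 6 below, with medians of -0.39 and -0.38, where 52.9% and 54.4% of all genes were above. MA1 r1 and MA6 r1 were the 2 highest arrays for 6 of the 9 genes, a pattern found in 17.9% of all 5449 genes, and WT r1 and MA5 r1 were the 2 lowest for 6 of the 9, against 17.5% of all genes. Both held for 5 of the 9 (PIR3, GSC2, FKS1, CRH1 and SED1), against 7.91% of all genes. Because the 9 genes were chosen with their levels known, these shares describe them and test nothing.

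Arrays of different strains were closer to each other than the 2 arrays of 1 strain in several cases. The pairs across strains given here were picked with earlier results of these data known, and no other such pairs were compared. Their likeness is therefore a description and tests nothing. Over the 9 genes, the median absolute difference was 0.02 between MA1 r1 and MA6 r1, with a largest difference of 0.10 for HSP150, and 0.01 between WT r1 and MA5 r1, with a largest of 0.23 for CWP1. MA2 r1 and MA7 r1 differed by a median of 0.02, and MA3 r1 and MA7 r2 by 0.05. Within a strain the median difference was between 0.04 in MA8 and 0.53 in WT. The 2 MA8 arrays were thus closer to each other than MA3 r1 and MA7 r2. The largest difference within a strain was that of PIR3 in each of the 8 strains. CCT2 and CCT3 showed the same likeness across labels. CCT2 was 10.64 on MA1 r1 and 10.47 on MA6 r1, against 12.93 to 13.19 on the other arrays, those of MA2 included. CCT3 was 10.16 on MA1 r2 and 10.22 on MA6 r2, against 12.07 to 13.21 on the others. The labels place the substitutions of MA1 and MA6 in CCT1 and CCT6. In both strains the 2 arrays thus differed in CCT2 and CCT3, and they were kept as labelled. Both MA1 arrays also stayed in the fit without the arrays whose URA3 opposes the label.

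Across the 16 arrays, PIR3 and GSC2 had a Pearson correlation of 0.94 and a Spearman correlation of 0.90. Without the 2 arrays farthest from the median of PIR3 the Pearson value was 0.87, and over the 12 arrays left after dropping the 2 lowest and 2 highest for PIR3 it was 0.90. The correlation of GSC2 with CRH1 was 0.93 over all arrays and 0.57 over 12 arrays, that with FKS1 was 0.90 and 0.50, and that with SED1 was 0.89 and 0.80. GSC2 and CRH1 thus moved together mostly through the 4 arrays at the ends. The correlation of CWP1 with GSC2 was 0.55 over all arrays, -0.38 without MA1 r1 and MA6 r1, and 0.51 over 12 arrays, so its sign depended on which of the arrays at the ends were kept. PIR1 had correlations between -0.32 and 0.02 with the other 8 genes. These values share arrays and normalization and fall into groups of arrays, so they are given without a test.

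**Figure D3:**
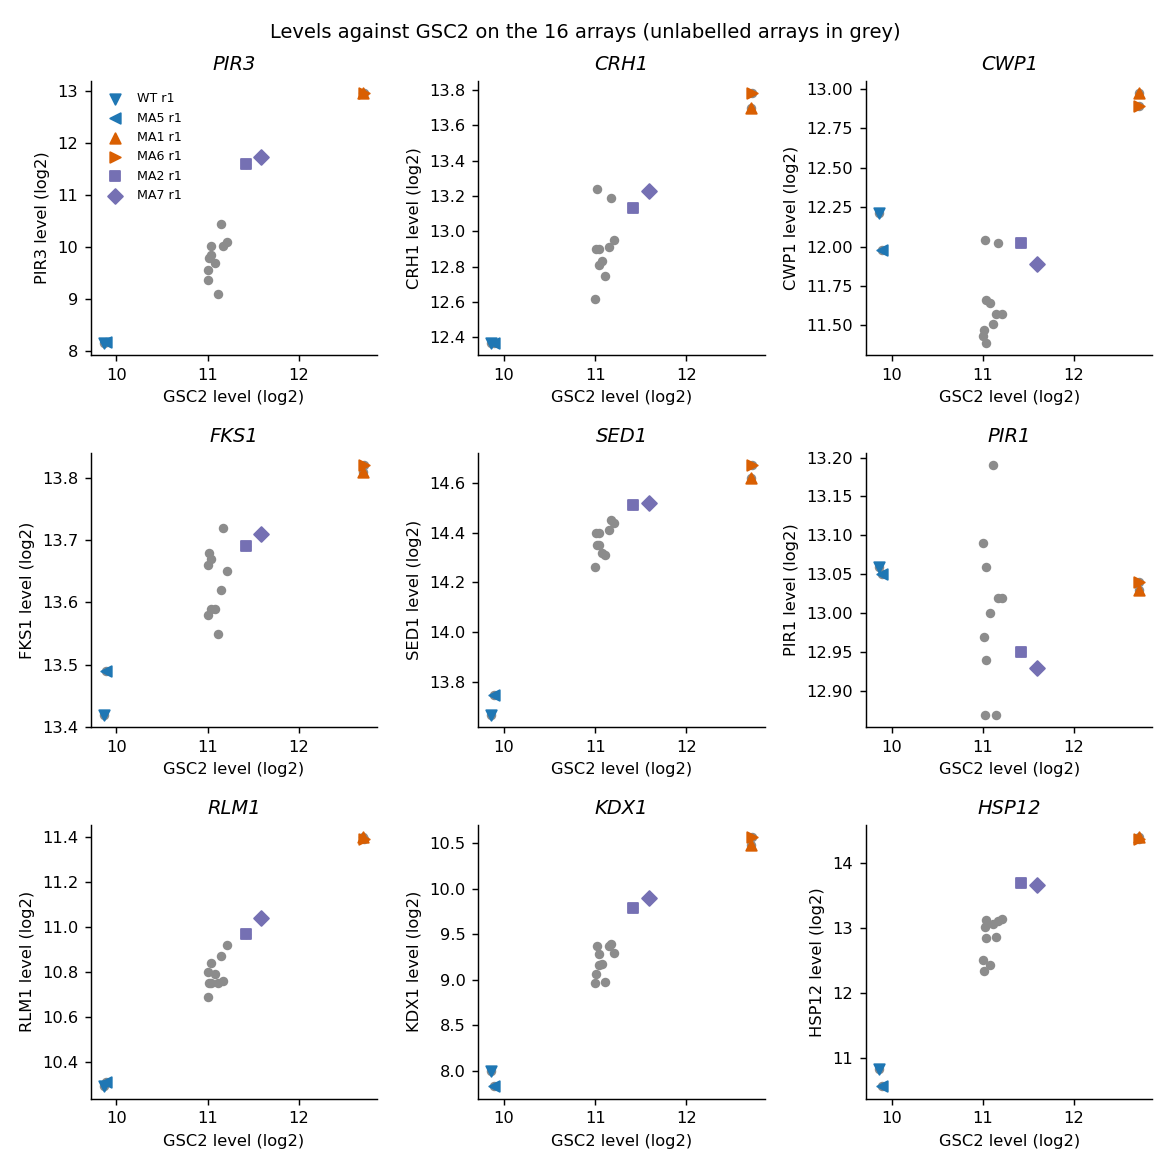
Log2 levels of 6 of the wall genes and of RLM1, KDX1 and HSP12 (vertical axes) against the log2 level of GSC2 (horizontal axis), with 1 point per array and 6 arrays marked by name. PIR3, FKS1, CRH1 and SED1 run from WT r1 and MA5 r1 at the low end to MA1 r1 and MA6 r1 at the high end, CWP1 is above its median at both ends, and PIR1, which spans 0.32, has no such order. Each vertical axis has its own scale.

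The genes with levels most like those of each of the 9, by Pearson correlation over 16 arrays, were picked from the 5440 other genes. PIR3 was most like PST1, a GPI wall protein gene, and USV1, a zinc finger gene (both 0.98, and 0.96 and 0.95 without MA1 r1 and MA6 r1). GSC2 was most like DFG5, a GPI-anchored mannosidase-like gene of wall assembly, and RLM1 itself (both 0.99, and both 0.97 without those arrays). FKS1 came with PPZ1, a phosphatase gene, at 0.98 and SLT2 at 0.97. CRH1 had PUN1 and SPG5 nearest, and SED1 had the polyubiquitin gene UBI4 and GPG1, all between 0.98 and 0.99.

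The remaining genes had other neighbours in this sense. HSP150 was most like ZRT1, the high-affinity zinc transporter gene, at 0.98 and IML2 at 0.96. CIS3 was most like KCH1 at 0.96 and GWT1, a GPI-anchor synthesis gene, at 0.95, and without MA3 r1 and MA7 r2 these fell to 0.82 and 0.77. CWP1 came with YKR075C at 0.96 and SUR1 at 0.95, and PIR1 had no closer gene than YAP3 and MDM38 at 0.74.

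Genes of the wall integrity pathway outside the 9 were summarised in lists by role. These lists, like the 9 genes, were chosen with earlier results of these data known. Their shares therefore describe them and test nothing. Of 9 other genes known as outputs of Slt2 and Rlm1, all 9 had MA1 r1 and MA6 r1 as their 2 highest arrays, against 17.9% of all genes, and 8 had WT r1 and MA5 r1 as their 2 lowest, against 17.5%. Their median deviation was 0.61 and 0.64 on the first pair and -0.47 and -0.51 on the second. Correlation with GSC2 was over 0.9 for 6 of these 9 genes (DFG5, PST1, KDX1, SLT2, CHS3 and PUN1) and for 4.30% of all other genes. With PIR3 it was over 0.9 for the same 6, against 3.27%. Such likeness to GSC2 was not particular to this list. It held for 3 of 8 negative regulators of the pathway and 5 of 14 chitin genes, CHS3 included. It also held for 3 of 9 calcineurin genes (GYP7, CMK2 and CMP2) and 3 of 10 general stress markers. It held for 0 of the 3 other glucan synthase genes and not for PIR5. With PIR3 the counts were 3 of 8, 3 of 14, 1 of 9 and 1 of 10 in the same order.

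KDX1, a kinase-like relative of SLT2, lies 2 genes from PIR3 on chromosome XI. It was 10.48 and 10.57 on MA1 r1 and MA6 r1 and 8.00 and 7.83 on WT r1 and MA5 r1, with a correlation of 0.96 to PIR3. YKL162C, between them, had a correlation of 0.89 with PIR3 over a range of 0.87. On chromosome X, FMP33 next to PIR5 had a correlation of 0.92 with HSP150, and FAR1, a cell cycle inhibitor of the mating response next to CIS3, one of -0.78.

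Within the pathway the members differed in how far they moved. Among 11 kinase and transcription factor genes, SLT2 spanned 1.35, from 11.42 on MA5 r1 to 12.77 on MA6 r1, RLM1 spanned 1.11, and the Rho1 exchange factor gene ROM1 spanned 1.65. PKC1, MKK1 and MKK2 moved little: PKC1 was between 9.88 and 10.29 on all 16 arrays. Among the 5 sensor genes, MTL1 spanned 1.48, WSC3 0.95 and MID2 0.65. The Rho1 GTPase-activating gene BAG7, on the list of negative regulators, spanned 3.66 and was 8.78 and 8.66 on MA1 r1 and MA6 r1, against 6.77 or less on the other 14 arrays. On those 14 arrays its signal was below 7, the level used to filter dim probe sets, so the size of its range is uncertain.

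**Figure D4:**
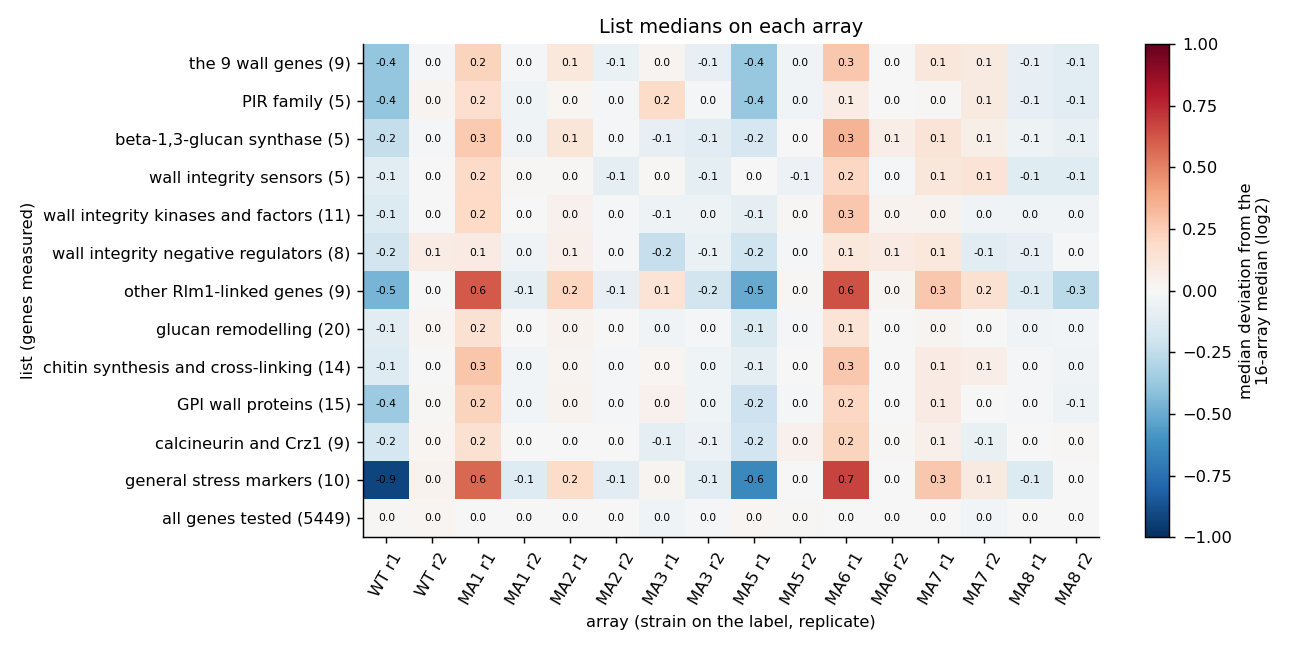
Median deviation from each gene's median over the 16 arrays for the 9 wall genes and for lists of related genes, by array (colour scale in log2 units, number of genes in parentheses). The other genes linked to Rlm1 reach 0.61 and 0.64 on MA1 r1 and MA6 r1 and -0.47 and -0.51 on WT r1 and MA5 r1, and the general stress markers 0.57 and 0.68 and -0.92 and -0.65.

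Other genes moved with the same arrays. A list of 10 general stress markers included HSP12, HSP26 and CTT1. Their median deviation was 0.57 and 0.68 on MA1 r1 and MA6 r1 and -0.92 and -0.65 on WT r1 and MA5 r1. On MA1 r1 and MA6 r1, 9 of the 10 were above their median. HSP26 was the exception on both, with deviations of -0.24 and -0.03. On WT r1 and MA5 r1, 9 of the 10 were below their median, HSP26 among them at -1.26 and -1.51. HSP12 ranged from 10.56 to 14.40. Of the 7 a-cell markers, 6 were below their median on both MA1 r1 and MA6 r1 and above it on both WT r1 and MA5 r1, the exception being ASG7, and the list had medians of -0.56 and -0.62 on MA1 r1 and MA6 r1 and 0.29 and 0.51 on WT r1 and MA5 r1. The difference between the 3' and 5' control probe sets of SPT15, a measure of RNA integrity and labelling, was 1.37 on WT r1, 1.21 on MA5 r1 and 1.47 or more elsewhere. For SRB4 both arrays were also near the low end, at 1.98 on WT r1 and 1.99 on MA5 r1, and only MA5 r2 was lower, at 1.91. For WBP1, MA5 r1 was lowest at 1.36, and WT r1 and MA8 r1 came next at 1.55, within 1.36 to 1.70 on all arrays. ACT1 and RIP1 did not set both arrays apart. The difference on WT r1 and MA5 r1 was 0.44 and 0.42 for ACT1, within 0.38 to 0.48 on all arrays. It was 0.25 and 0.31 for RIP1, within 0.25 to 0.49. The part of stress, RNA quality and the marker contradiction in the levels of the 9 genes was not tested.

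Grouped by the labels, no change of the 9 genes passed the test. With limma's moderated test and Benjamini-Hochberg adjustment over all 5498 probe sets, 0 of the 63 pairs of gene and mutant strain passed an adjusted p of 0.05, and 0% of all probe sets were called in each of the 7 comparisons. At an unadjusted p under 0.05, between 18 probe sets (MA5) and 635 (MA6) would have passed. GSC2 in MA6 had the strain's mean 1.51 ± 0.65 (standard error, n = 2 arrays a group) above WT on the log2 scale, with a limma adjusted p of 0.40. That value was 0.76 without MA6 r1, 2.27 without MA6 r2, 0.92 without WT r1 and 2.11 without WT r2. It was smaller without either array at the ends of the range and larger without the other array of the same strain.

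PIR3 in MA6 was 2.44 ± 1.34 above WT (n = 2, limma adjusted p = 0.41), and 1.01 without MA6 r1, 1.51 without WT r1 and 3.86 without MA6 r2. CRH1 in MA6 was 0.73 ± 0.34 above WT, SED1 0.55 ± 0.23 and FKS1 0.19 ± 0.10 (n = 2 each, limma adjusted p = 0.40 for each). These 3 values were 0.46, 0.21 and 0.07 without WT r1, and for CRH1 and FKS1 0.31 and 0.11 without MA6 r1. CRH1 was 1.14 without MA6 r2, and SED1 and FKS1 were 0.88 and 0.32 without WT r2. Each of these differences was smaller without WT r1 or without MA6 r1, the arrays at the ends of the range.

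For the other 4 genes the strain with the highest absolute moderated t was another. HSP150 in MA1 was 0.30 ± 0.14 above WT (n = 2, limma adjusted p = 0.61), and 0.12 and 0.49 without WT r1 and WT r2. CIS3 in MA7 was 0.21 ± 0.13 above WT (n = 2, limma adjusted p = 0.54), and 0.06 without MA7 r2, 1 of the 2 arrays with high chromosome X signal, and 0.35 without MA7 r1. CWP1 in MA8 was -0.53 ± 0.50 (n = 2, limma adjusted p = 0.97), -0.26 without WT r1 and -0.81 without WT r2. PIR1 in MA5 was -0.10 ± 0.11 (n = 2, limma adjusted p = 1), -0.01 without MA5 r2 and -0.19 without MA5 r1. Without the 6 arrays whose URA3 opposes the label, these values were 0.49 for HSP150, 0.20 for CIS3, -0.79 for CWP1 and -0.19 for PIR1, and MA6 had no array left, so the values in MA6 have no counterpart. Among the 10 arrays that remain, PIR3 still ran from 8.15 on WT r1 to 12.95 on MA1 r1 and GSC2 from 9.86 to 12.71 on the same arrays.

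The direction in the strain means was mostly upward against WT. The mutant mean was higher for 8 of the 9 genes in MA1, MA6 and MA7, 7 in MA2 and MA3, 6 in MA8 and 5 in MA5, with median differences of 0.30, 0.29, 0.30, 0.22, 0.28, 0.08 and 0.00 in that order of strains. All tested probe sets had medians between -0.05 and 0.00. The share of them that was higher was 47.5%, 49.8%, 43.3%, 44.9%, 35.8%, 46.6% and 49.9% in MA1, MA6, MA7, MA2, MA3, MA8 and MA5. The 7 comparisons share the 2 WT arrays, of which WT r1 was the lowest or second lowest array for 6 of the 9 genes, so they are not independent. Without WT r1, 1 of the 9 genes was higher in MA5 and 0 in MA8, with median differences of -0.19 and -0.09, and in MA3 5 were higher, with a median of 0.02. In MA1, MA6 and MA7 it was still 8 of 9, and 7 in MA2, with medians of 0.16, 0.21, 0.22 and 0.07. Without the same array, the PIR3 difference in MA3 went from 0.35 to -0.58 and that in MA5 from 0.22 to -0.71. Leaving out some single array turned the sign of 25 of the 63 differences, 17 of them when it was WT r1. For the other Rlm1-linked genes, 0 of 9 passed in any strain, and their median differences were 0.60 in MA1, 0.66 in MA6, 0.57 in MA7 and -0.02 in MA5.

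Tested together, the mean of the 7 mutants was above WT by 1.29 ± 1.01 for PIR3, 0.84 ± 0.49 for GSC2 and 0.38 ± 0.18 for SED1, with limma adjusted p-values of 0.69, 0.68 and 0.68, and 0% of probe sets were called. Differences among the 7 mutants were called for 0% of probe sets by limma's F test, and the 9 genes had adjusted p-values between 0.89 and 0.99. When the 8 strains were ordered by their means for each gene, the arrays of neighbouring strains overlapped in 58 of 63 cases (92.1%), against 92.2% over all genes tested. For PIR3 the order ran from MA6 (11.52 ± 2.02, SD, n = 2) to WT (9.08 ± 1.32), and all 7 neighbouring pairs overlapped.

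**Figure D5:**
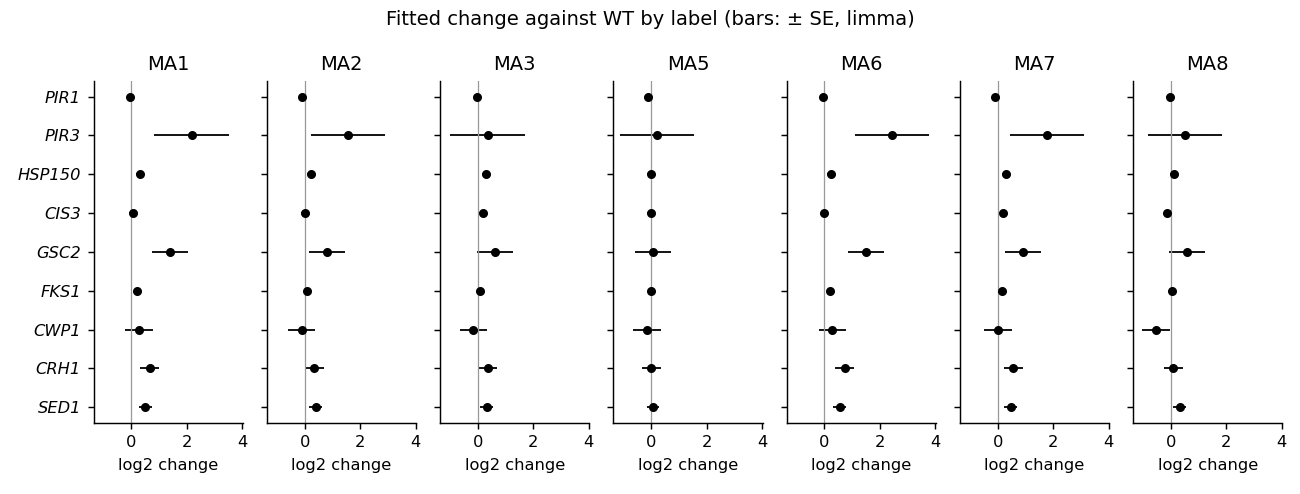
Fitted difference between each mutant strain and WT (log2, points) with its standard error (bars, n = 2 arrays a group) for the 9 genes. The points for PIR3 and GSC2 in MA6 lie at 2.44 and 1.51, and no difference passed an adjusted p of 0.05.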

How the data were processed

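Biotin-labelled cRNA was hybridised to Affymetrix yeast arrays, 2 per strain. The authors deposited log2 values per probe set, made with RMA and Partek per the submitters' processing notes; scanner files were not used here. Bright array signals can be compressed. The authors' background correction and quantile scaling bring arrays toward similar distributions. Medians over all probe sets still ran from 6.40 to 7.12. Of 10928 probe sets, 5498 named 1 S. cerevisiae gene (5449 genes); for 47 genes with several probe sets the one with the highest mean is shown. Groups come from the labels. limma 3.58.1 (R 4.3.3) fitted all 8 strains together (lmFit, eBayes), with Benjamini-Hochberg adjustment over all 5498 probe sets and a threshold of 0.05, and was tested on simulated data. Deviations are log2 levels minus the gene's median over the 16 arrays. Named genes are the 9 genes, the strain with the highest absolute t for each, the 2 most correlated genes, chromosome neighbours, and the 3 genes of widest range per list, with some others of the same pathway step. The genes and lists were chosen with earlier results of these data known, and a planned list is not reported here. Array number limits the precision. Same-numbered arrays were not treated as pairs. Alternatives changed the normalization, filter, probe sets, variance prior, moderation, replicate block, strains in the fit and the arrays used.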

Additional observations from a re-analysis of the deposited data

How the results depend on the processing

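The count of probe sets called was 0 in each comparison under another median shift, a second quantile normalization, a filter on dim probe sets, all probe sets of the array, an intensity trend, an unmoderated model, only the strains compared, and with each array left out in turn (a lone array is then assumed to vary like the other groups). Without the arrays whose URA3 opposes the label, 1 probe set was called in each of MA1, MA2, MA3, MA5, MA7 and MA8; in all 6 it was URA3 itself, which chose the arrays left out. MA6, the mean of the mutants and the F test have no value there, and the mean has none with only the strains compared. With the replicate block 0 probe sets were called. Array differences of 28 pairs of strains had correlations between -0.66 and 0.93, with 7 over 0.1, so the numbers do not pair the arrays. In the strain with the highest absolute t for each of the 9 genes, the fitted change kept its direction in every alternative run, with adjusted p-values between 0.13 and 1. Over all 63 pairs of gene and strain, 25 changed sign when some single array was left out. Bright signals near the top of the scale limit what can be seen for HSP150, SED1 and CCW12. They may do so for PIR1, CIS3, FKS1 and CRH1, which was not tested.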

Other observations

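Other wall genes differed in the arrays at which they were high. CRR1, a relative of CRH1 that acts in the spore wall, was highest on WT r1 and MA5 r1, at 8.63 and 8.76. Of 14 chitin genes, CHS3, CHS1 and CHS7 were highest on MA1 r1 and MA6 r1 (CHS7 at 11.91 on both), while the septum chitin synthase gene CHS2 was lowest there, at 10.45 on both. BCK1 and KRE9, on chromosome X, were highest on MA3 r1 and MA7 r2, at 11.26 and 11.06 for BCK1. CCW12 lay between 14.62 and 14.73 on all 16 arrays, close to the highest signal, where a change could not be seen.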
